A study of Mus musculus with 7 samples.

Results

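The 10 genes described here code for chaperones, folding enzymes and control factors of the endoplasmic reticulum (ER): Hspa5, Dnajb9, Sdf2l1, Hsp90b1, Calr, Pdia4, Pdia6, Creld2, Herpud1 and Xbp1. They were taken by gene symbol from the gene count tables by a rule that uses no measured value, although the list was drawn up with earlier results of these data known, and they are 10 of 51426 genes in those tables. Liver RNA was sequenced from 3 wild-type (WT) and 4 TET1 KO male mice, 1 library per mouse. Both groups carried the strain label C57BL/6J and received a high-fat diet (HFD) for 16 weeks, begun at 8 weeks of age by the study's methods, so no chow-fed liver was part of the comparison. TET1, which starts the removal of methyl groups from DNA, was knocked out in the whole body of the TET1 KO mice. The study's methods describe more than 1 whole-body knockout, namely the allele of the stock B6;129S4-Tet1tm1.1Jae/J and floxed TET1 crossed with a β-actin Cre line. The study names the sequenced livers as TET1-/- and TET1 wt/wt, the notation it uses apart from the Cre cross, while the sample labels say only that the knockout is whole-body.

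Secreted and membrane proteins are folded in the ER, and the hepatocyte, which exports albumin, clotting factors and lipoproteins, carries a heavy load of them. When unfolded proteins build up, 3 sensors of the ER membrane (IRE1, PERK and ATF6) start the unfolded protein response, which slows protein synthesis and raises the genes for chaperones and for the degradation of misfolded proteins. IRE1 acts by splicing the Xbp1 mRNA into the form that codes for an active transcription factor, ATF6 is cut to release a transcription factor, and PERK acts through the factor ATF4. Overnutrition and fatty liver are settings in which this response has been much studied.

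Many of these genes are known to be controlled through a promoter motif, the ER stress response element (ERSE), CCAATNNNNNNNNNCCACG, to which the factor NF-Y and cleaved ATF6 bind. Both strands of the RefSeq promoter windows of GRCm38.p6 (250 bases before to 50 bases after the start of transcription) were searched for it. All 10 genes had a window, and 5 of them (Hspa5, Hsp90b1, Pdia6, Calr and Creld2) held the element, against 0.12% of all 32851 windows. A related element, ERSE-II (ATTGGNCCACG), was found in Herpud1 alone of the 10 genes and in 0.04% of all windows, and the sequence TGACGTGG, a binding site of XBP1 and ATF6, was found in 0 of the 10 and in 0.68% of all windows. Each ERSE contains a CCAAT box, and CCAAT by itself was present in 9 of the 10 windows, all but that of Xbp1, and in 37.41% of all windows. The elements are printed below because 6 of the 10 promoters hold 1 of them, on the gene's strand, in lower case with the element in capitals. Where the element lies on the opposite strand it reads CGTGG first and ATTGG last.
Hspa5, chr2:34772015-34772053, plus strand: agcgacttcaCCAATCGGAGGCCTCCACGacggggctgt
Hsp90b1, chr10:86705628-86705666, minus strand: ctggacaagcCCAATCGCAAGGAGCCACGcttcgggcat
Hsp90b1, chr10:86705523-86705561, minus strand: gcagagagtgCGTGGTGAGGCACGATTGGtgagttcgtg
Pdia6, chr12:17266481-17266519, plus strand: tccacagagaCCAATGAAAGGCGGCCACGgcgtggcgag
Calr, chr8:84847065-84847103, minus strand: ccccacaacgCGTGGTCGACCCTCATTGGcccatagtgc
Creld2, chr15:88819510-88819548, plus strand: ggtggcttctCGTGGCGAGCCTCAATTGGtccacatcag
Herpud1, ERSE-II, chr8:94386367-94386397, plus strand: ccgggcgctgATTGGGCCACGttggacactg

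The element began 65 bases before the start of Hspa5, 98 before that of Pdia6, 126 before that of Creld2 and 162 before that of Calr. Hsp90b1 held a pair of them, at 212 and 107 bases before the start, and the ERSE-II of Herpud1 began 52 bases before the start. No match to ERSE or ERSE-II was found in the windows of Dnajb9, Sdf2l1, Pdia4 and Xbp1. Because Dnajb9 had the largest genotype difference of the 10 genes (below), the whole stretch of 250 bases before its start (chr12:44210069-44210318, minus strand) is given, without capitals since it held neither element.
Dnajb9: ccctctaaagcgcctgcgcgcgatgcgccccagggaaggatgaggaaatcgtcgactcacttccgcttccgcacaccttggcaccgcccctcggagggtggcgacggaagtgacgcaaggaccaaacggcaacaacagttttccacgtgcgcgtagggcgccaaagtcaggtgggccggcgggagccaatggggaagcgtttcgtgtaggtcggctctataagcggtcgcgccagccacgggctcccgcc

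**Figure D1:**
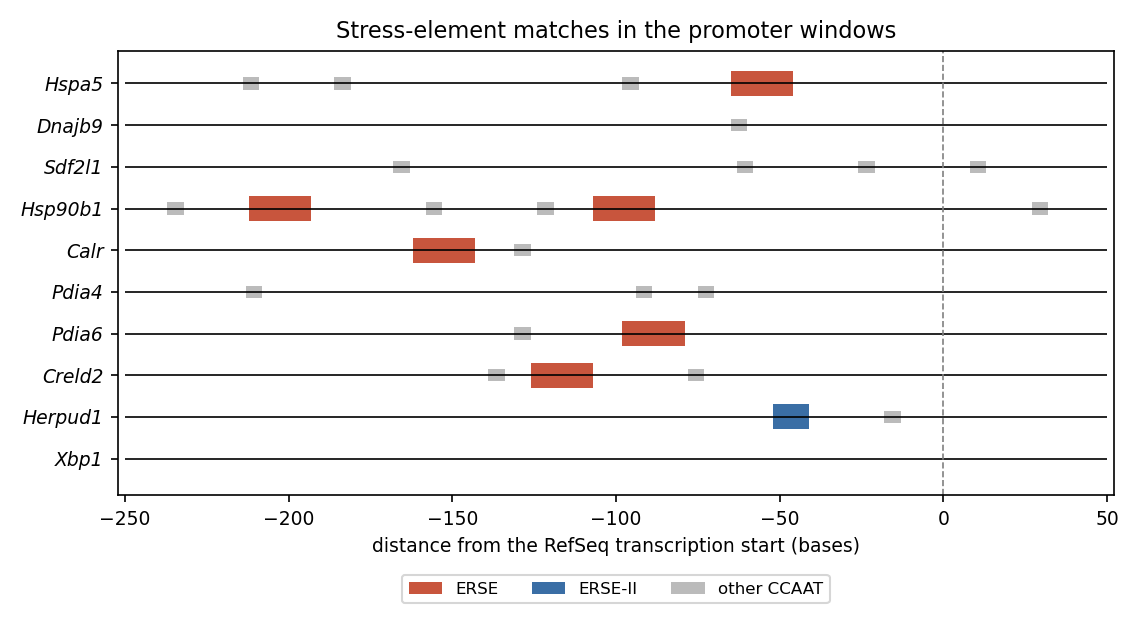
Matches to ERSE, ERSE-II and the bare CCAAT in the promoter windows of the 10 genes, on either strand; the x axis is the distance in bases from the RefSeq transcription start and the dashed line marks that start. ERSE is present in 5 genes, with 2 copies in Hsp90b1, ERSE-II in Herpud1, and Xbp1 holds no CCAAT.

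The libraries held 15005277 to 22746138 assigned counts, and levels are given as CPM, each gene's count scaled to a common library size by the TMM method. Of 14754 genes tested, 298 (2.02%) differed between TET1 KO and WT livers at an adjusted p under 0.05 (edgeR's quasi-likelihood test with Benjamini-Hochberg adjustment), 129 (0.874%) higher and 169 (1.15%) lower in TET1 KO; scaling by library size alone gave 107 higher and 312 lower. Reads of Tet1 were too few to test (1, 4 and 1 in WT, and 2, 1, 4 and 1 in TET1 KO), so its level did not check the genotype labels. No library was set aside, but TET1 KO replicate 1 and WT replicate 3 were at the low and the high end for most of the 10 genes, and the range of each gene's log2 fold change with single livers left out is given beside it. The labels tie no mouse to a litter or a cage. The p-values weigh the genotype difference against the spread between livers within a genotype, in these 7 livers.

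For none of the 10 ER genes was a difference between TET1 KO and WT livers called. All 10 passed the filter on low counts, and 0 of 10 were called, against 2.02% of all tested genes. At an unadjusted p under 0.05 there was 1 of 10, Dnajb9, against 26.3% of all tested genes. DESeq2 called Dnajb9 alone (adjusted p = 0.0148), a tool that called 4.75% of its genes lower and 4.27% higher in TET1 KO. Of the estimates, 6 lay below 0 and 4 above, with a median log2 fold change of −0.15 beside 0.01 over all tested genes; the sign of Hsp90b1 turned when libraries were scaled by size alone (−0.05). In none of the 10 genes were the WT and TET1 KO livers fully separated, whereas the groups did not overlap in 22.5% of all tested genes.

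**Figure D2:**
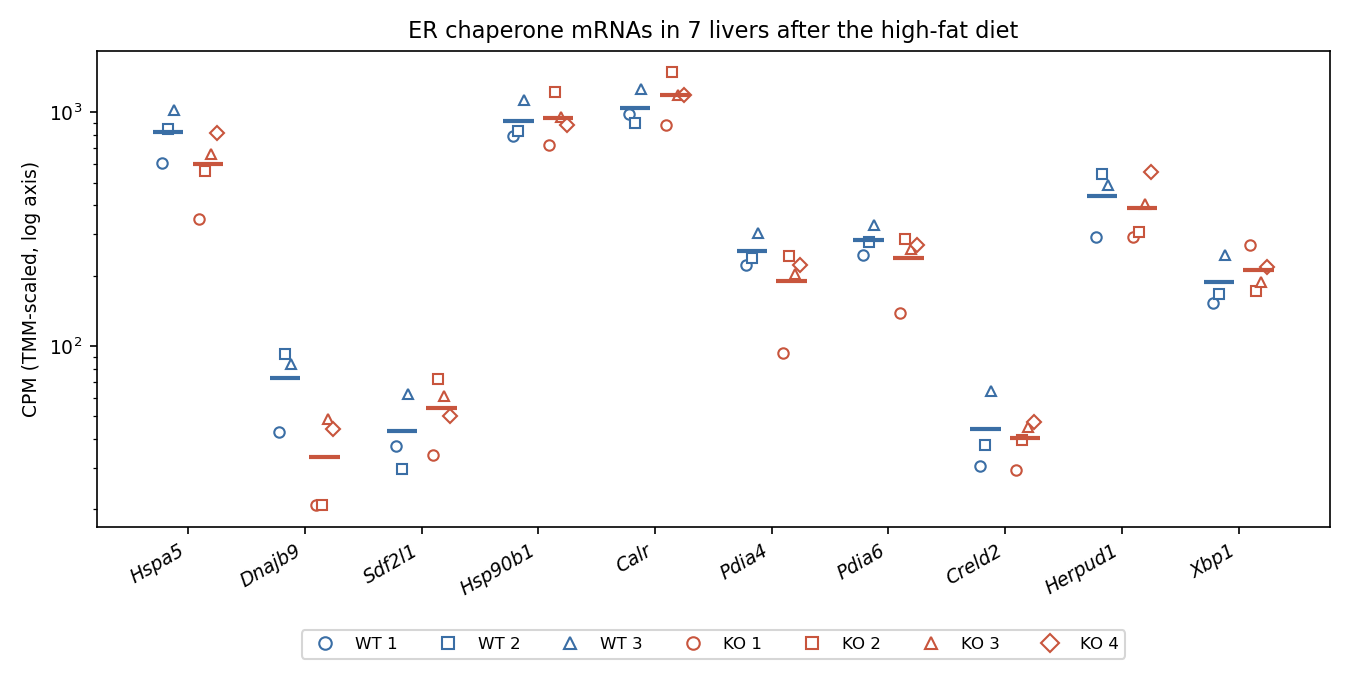
Levels of the 10 mRNAs in each liver (y axis, CPM on a log axis; blue, 3 WT; red, 4 TET1 KO; bars, group means; symbols mark replicate numbers, which do not pair mice). The groups overlap in every gene, Dnajb9 has the widest gap between means, 72.9 against 33.6 CPM, and the TET1 KO replicate 1 circle is low in most genes but the highest point of Xbp1.

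Hspa5 codes for BiP, the Hsp70 chaperone that binds unfolded proteins and holds the 3 sensors inactive (chr2:34772090-34776529). Its level was 604, 844 and 1021 CPM in the WT livers and 348, 562, 665 and 818 CPM in the TET1 KO livers. The lowest 2 livers were TET1 KO replicates 1 and 2, and the highest 2 were WT replicates 3 and 2. The WT mean was 823 ± 210 CPM (SD, n = 3) and the TET1 KO mean 598 ± 197 CPM (SD, n = 4), with a log2 fold change of −0.46 with SE 0.27 and a 95% interval of −1.06 to 0.14 (adjusted p = 0.3), and the difference was not called. With single livers left out it ran from −0.65 (reached when either WT replicate 1 or TET1 KO replicate 4 was dropped) to −0.27 (without TET1 KO replicate 1), and it was −0.30 without WT replicate 3.

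Dnajb9 codes for ERdj4, a J-domain partner of BiP that takes part in degradation and in holding back IRE1 (chr12:44205897-44210068). It was measured at 42.7, 92.4 and 83.6 CPM in the WT livers and at 20.8, 20.8, 48.6 and 44.2 CPM in the TET1 KO livers. All 4 TET1 KO livers were below WT replicates 2 and 3, while WT replicate 1 fell inside the TET1 KO range. The log2 fold change was −1.11 (SE 0.34, 95% interval −1.86 to −0.37, unadjusted p = 0.00738), and the adjusted p of 0.0885 missed the threshold over all tested genes. Over the 14 other fits, the adjusted p of Dnajb9 ranged from 0.0148 to 0.347, its log2 fold change from −1.40 to −0.91, and 2 of these fits called it.

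Sdf2l1 codes for a small partner of the BiP and J-protein complex (chr16:17130138-17132383). It was found at 37.1, 29.7 and 62.5 CPM in the WT livers and at 34.1, 71.8, 60.9 and 50.1 CPM in the TET1 KO livers. Its order of livers was unlike that of Hspa5, with TET1 KO replicate 2 highest and WT replicate 2 lowest. The log2 fold change was 0.33 (SE 0.28, 95% interval −0.29 to 0.95, adjusted p = 0.462), and it ran from 0.12 (without WT replicate 2) to 0.68 (without WT replicate 3, adjusted p = 0.189) with single livers left out.

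Hsp90b1 codes for GRP94, the ER member of the Hsp90 chaperones, which helps to fold integrins and Toll-like receptors (chr10:86690841-86705444). Its level was 795, 831 and 1131 CPM in the WT livers and 727, 1226, 952 and 886 CPM in the TET1 KO livers. The group means were nearly equal, 919 ± 184 and 948 ± 208 CPM, with a log2 fold change of 0.04 (SE 0.22, 95% interval −0.43 to 0.52, adjusted p = 0.912). The interval left room for changes of 0.742-fold to 1.43-fold, and the estimate ran from −0.12 (without TET1 KO replicate 2) to 0.20 (without WT replicate 3). Hsp90b1 lies on the same chromosome as Tet1, 23.8 Mb away.

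Calr codes for calreticulin, a calcium-binding lectin that holds newly made glycoproteins until they are folded (chr8:84842088-84846931). It had the highest counts of the 10 genes, 987, 900 and 1253 CPM in the WT livers and 880, 1481, 1191 and 1184 CPM in the TET1 KO livers. In TET1 KO, 3 of the 4 livers were above 2 of the 3 WT livers, and the lowest liver was again TET1 KO replicate 1. The log2 fold change was 0.18 (SE 0.21, 95% interval −0.29 to 0.65, adjusted p = 0.617), with 0.04 without TET1 KO replicate 2, 0.30 without TET1 KO replicate 1 and 0.31 without WT replicate 3.

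Pdia4 and Pdia6 code for protein disulfide isomerases, which make and rearrange disulfide bonds. Pdia4 (chr6:47796141-47813512) was at 222, 237 and 303 CPM in the WT livers and at 93.4, 243, 203 and 221 CPM in the TET1 KO livers. Pdia6 (chr12:17266589-17284785) was at 245, 277 and 328 CPM in the WT livers and at 138, 287, 259 and 271 CPM in the TET1 KO livers. For both genes 1 liver, TET1 KO replicate 1, was far below the other 6, which ran from 203 to 303 CPM for Pdia4 and from 245 to 328 CPM for Pdia6. The log2 fold changes of −0.42 for Pdia4 (SE 0.27, adjusted p = 0.341) and −0.25 for Pdia6 (SE 0.23, adjusted p = 0.506) became −0.19 and −0.06 without that liver. The other extremes were −0.57 for Pdia4 and −0.36 for Pdia6, both without TET1 KO replicate 2.

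Creld2 codes for an ER-resident protein with epidermal growth factor-like repeats that is released on ER stress (chr15:88819646-88826681). It was found at 30.5, 37.7 and 64.1 CPM in the WT livers and at 29.3, 39.7, 45.1 and 47.2 CPM in the TET1 KO livers. WT replicate 3 was the highest liver, and the TET1 KO livers lay closer together (SD 8 CPM) than the WT livers (SD 17.7 CPM). The log2 fold change was −0.13 (SE 0.24, 95% interval −0.67 to 0.41, adjusted p = 0.76), and its sign turned without WT replicate 3 (0.22), while it was −0.34 without WT replicate 1 and −0.00 without TET1 KO replicate 1.

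Herpud1 codes for a membrane protein that gathers the complex for ER-associated degradation, in which misfolded proteins are moved to the cytosol for the proteasome (chr8:94386429-94395371). It was at 291, 542 and 487 CPM in the WT livers and at 292, 307, 403 and 554 CPM in the TET1 KO livers. The highest and the second-lowest livers were both TET1 KO, and the log2 fold change was −0.18 (SE 0.26, 95% interval −0.75 to 0.40, adjusted p = 0.688). Single livers moved it from −0.41 (without WT replicate 1) to −0.00 (without WT replicate 2), with −0.40 without TET1 KO replicate 4 and −0.06 without TET1 KO replicate 1.

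Xbp1 codes for the transcription factor downstream of IRE1 (chr11:5520641-5525993). Gene counts hold the spliced and the unspliced mRNA together, so the active form was not measured. Its total level was 153, 166 and 244 CPM in the WT livers and 269, 172, 187 and 217 CPM in the TET1 KO livers. Xbp1 was the only one of the 10 genes for which TET1 KO replicate 1, the lowest liver for 6 of the others, was the highest. The log2 fold change was 0.17 (SE 0.20, 95% interval −0.27 to 0.62, adjusted p = 0.609), and it was 0.03 without that liver and 0.38 without WT replicate 3.

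**Figure D3:**
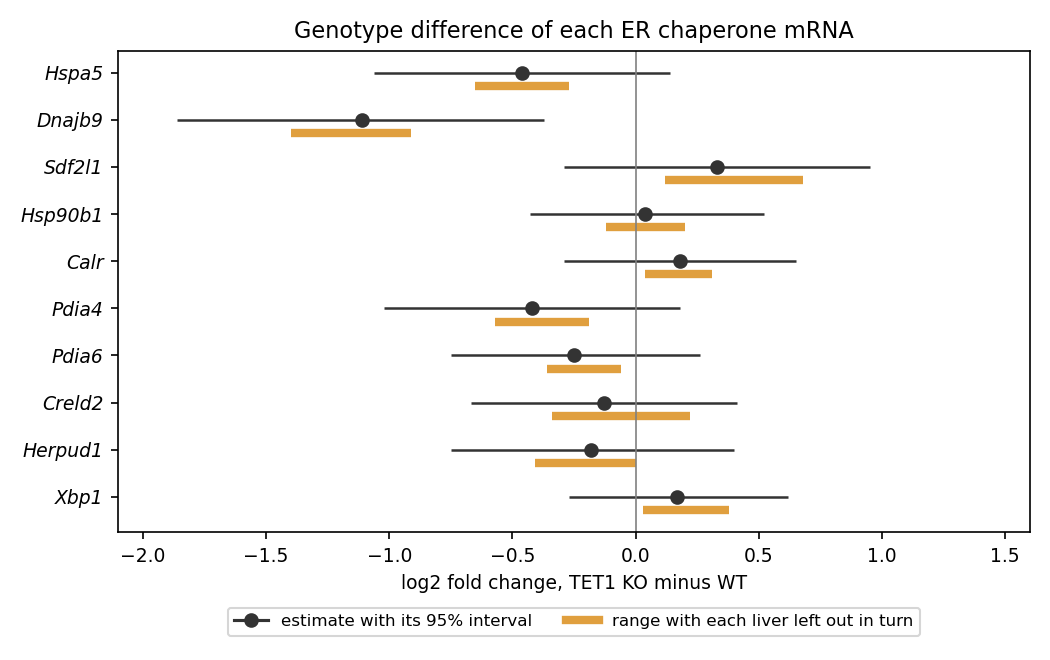
The log2 fold change of each gene, TET1 KO minus WT (x axis; points with 95% intervals from edgeR), with the range reached when each of the 7 livers was left out in turn (orange). The intervals of 9 genes include 0; that of Dnajb9 runs from −1.86 to −0.37, but its adjusted p is 0.0885, and the orange ranges of Hsp90b1 and Creld2 cross 0.

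The 10 mRNAs varied more between mice of 1 genotype than most other mRNAs of at least 10 CPM. Their within-genotype SD of log2 CPM ran from 0.29 for Calr to 0.64 for Dnajb9. Over the 7816 tested genes with a mean of at least 10 CPM the median SD was 0.20, all 10 genes were above that median, and 7 of them were above the 90th percentile of 0.38. The median SD of the 10 genes was 0.43. The ATF4 arm (described below) had the same median, but most of its genes had means below 10 CPM, outside that comparison. The other lists described below had medians of 0.15 to 0.22. These SDs describe 7 livers, and in bulk RNA fewer cells of a type and less RNA per cell cannot be told apart.

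The variation between mice was shared by most of the genes in 2 livers, TET1 KO replicate 1 and WT replicate 3. When each gene was standardized over the 7 livers and the 10 were averaged, the mean was lowest in TET1 KO replicate 1 (−1.16 SD units) and WT replicate 1 (−0.56) and highest in WT replicate 3 (1.03), with the other livers between −0.03 and 0.36. TET1 KO replicate 1 was among the 2 lowest livers for 9 of the 10 genes, and WT replicate 3 was among the 2 highest for 9 of the 10. The lowest liver was thus TET1 KO and the highest WT, but the other 3 TET1 KO livers (0.18 to 0.36) lay above the other 2 WT livers.

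Some of the genes ordered the livers differently from others. Over the 7 livers, and as a description since all points share the same libraries and scaling, Pdia4 and Pdia6 had a Pearson's r of 0.99 (Spearman's rho 0.89), which fell to 0.68 without the 2 livers farthest from the median of Pdia4. Hsp90b1, Calr and Sdf2l1 went together, with r = 0.93 for Hsp90b1 and Calr (rho 0.96) and r = 0.96 for Sdf2l1 and Calr (rho 0.96, and 0.94 without the farthest 2 livers of Sdf2l1). All of these 3 genes were highest in TET1 KO replicate 2. Hspa5 went with Dnajb9 (r = 0.86, rho 0.89, and 0.79 without 2 livers) and with Herpud1 (r = 0.82, rho 0.75, and 0.97 without 2 livers), and these genes were low in TET1 KO replicate 2. Hspa5 also went with Pdia4 (r = 0.88, rho 0.54) and Pdia6 (r = 0.89, rho 0.64), but these values rested on the extreme livers and were −0.07 and 0.18 without the 2 farthest. Hsp90b1 and Pdia6 had r = 0.72 (rho 0.82, and 0.77 without 2 livers). The relation was weaker for Hspa5 and Calr (r = 0.32, rho 0.21), and its sign turned without 2 livers (−0.56). It was slightly negative for Dnajb9 and Calr (r = −0.16, rho −0.11, and −0.22 without 2 livers). Xbp1 had an r below 0 in 6 of its 9 pairs, the lowest with Pdia4 (r = −0.47, rho −0.29, and −0.36 without 2 livers). Without the 2 livers farthest from the median of the first gene of the pair, 3 of the 9 were below 0 and that with Creld2 was 0.92. Of all 45 pairs, 9 had an r of at least 0.8 and 8 had one below 0. Among the 5 genes with an ERSE (above), r ran from 0.32 for Hspa5 and Calr to 0.93 for Hsp90b1 and Calr. Sdf2l1, which followed Calr, had no exact match in its window. A link between the element and the order of the livers was not tested.

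**Figure D4:**
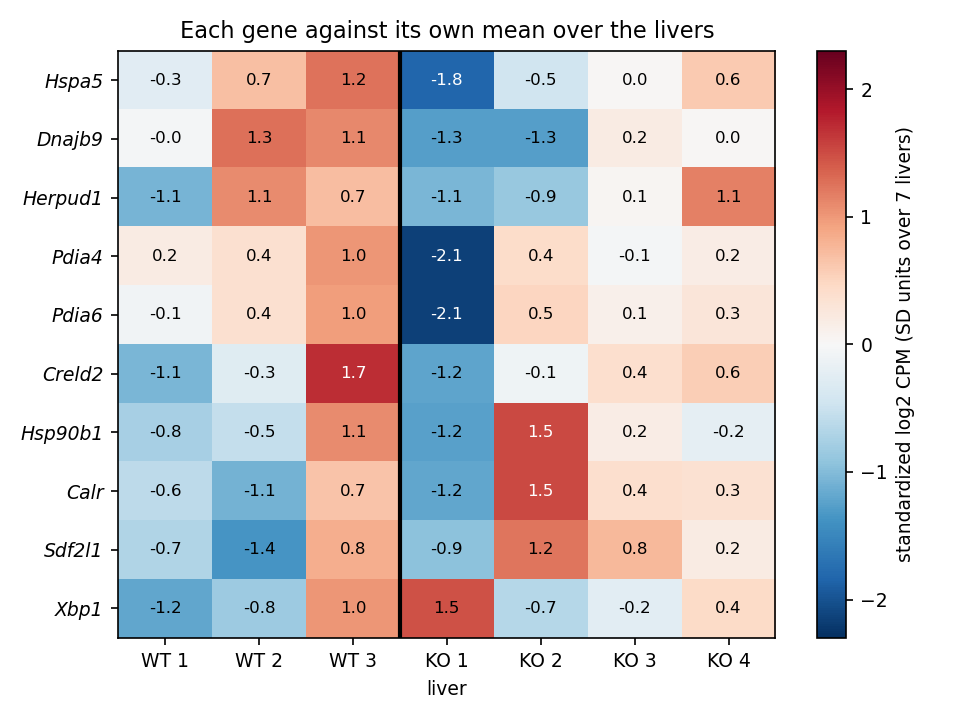
Standardized log2 CPM of each gene (rows) in each of the 7 livers (columns; SD units about the gene's own mean over the livers; the black line parts WT from TET1 KO). KO 1 is low for every gene but Xbp1, WT 3 is high for all 10, and KO 2 is low for Hspa5, Dnajb9 and Herpud1 but high for Hsp90b1, Calr and Sdf2l1.

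Among the other 7806 genes with a mean of at least 10 CPM, those whose log2 CPM followed the mean profile of the 10 most closely were Rnf121 (Pearson's r = 0.985, rho 0.96) and Dnajb11 (r = 0.980, rho 1.00), a J-domain partner of BiP in the ER. They were followed by Eif3d (r = 0.973), a subunit of a translation initiation factor, and by Bad (0.966), Ttc39b (0.957), Gjb2 (0.955), Slc41a2 (0.950), Mfsd4b3-ps (0.946), Habp2 (0.946) and Zfp746 (0.938). Dnajb11 ran from 82.1 to 138 CPM over the livers, and its log2 fold change was −0.02 (adjusted p = 0.964). None of these 10 genes was called, the lowest adjusted p being 0.412 for Mfsd4b3-ps. With 7 livers and 7806 genes, high values of r arise in number, and the names are a description.

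Levels of different genes were compared per kilobase of exon (CPM per kb, union exon lengths by gene identifier). Calr was the most abundant mRNA in both groups, with means of 363 in WT and 411 in TET1 KO livers and a range of 306 to 514 CPM per kb over all livers. Hspa5 (99 to 291), Hsp90b1 (180 to 304) and Herpud1 (125 to 237) came next, and their ranges overlapped one another. Pdia4 (37.6 to 122), Pdia6 (36.8 to 87.5) and Xbp1 (47.2 to 82.9) followed, again with overlapping ranges. Sdf2l1 (26.8 to 64.8), Creld2 (21.5 to 47) and Dnajb9 (11.1 to 49.5) were the least abundant. The order of the means was the same for the first, Calr, in both groups, whereas Hspa5 (234 in WT, 170 in TET1 KO) was above Hsp90b1 (228 and 235) in WT and below it in TET1 KO, a difference within the spread.

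The genes around these 10 in the secretory pathway were described with 6 further lists, which hold 117 genes, of which 116 were tested. In these lists 0 genes were called higher and 3 were called lower (Sec24d, Sec23a and Vldlr), against 0.874% and 1.15% of all tested genes. Their median log2 fold change was −0.10, with 72 of 116 estimates below 0, beside a median of 0.01 over all tested genes. The 3 calls depended on single livers. There were 0 without WT replicate 2, TET1 KO replicate 2 or TET1 KO replicate 3, 1 without WT replicate 1 (Sec23a), WT replicate 3 (Vldlr) or TET1 KO replicate 1 (Sec24d), and 4 without TET1 KO replicate 4. DESeq2 called 3 of these genes higher and 10 lower.

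Of 17 tested genes of COPII export, the coat that buds vesicles from the ER, 2 were called lower, against 1.15% of all tested genes. In this list 15 estimates lay below 0 (median −0.17). Sec24d, which picks cargo for the coat, was at 54.4, 63.2 and 52.5 CPM in the WT livers and at 23.7, 34.4, 36.6 and 36.1 CPM in the TET1 KO livers. Every TET1 KO liver was below every WT liver, and Sec24d fell by 0.79 on the log2 scale (SE 0.16, adjusted p = 0.0385). Sec23a, which binds SEC24 in the inner layer of the coat, was at 61.2, 84 and 66.7 CPM in the WT livers and at 46.3, 46.5, 42.5 and 46.8 CPM in the TET1 KO livers. The groups were again separate, and the log2 fold change was −0.63 (SE 0.14, adjusted p = 0.0432). Separate groups were found in 23.5% of the tested COPII genes, beside 22.5% of all tested genes.

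The ATF4 arm, the set of genes raised through PERK and ATF4, had 1 of 12 genes called lower, against 1.15% of all tested genes. Vldlr, a lipoprotein receptor that ATF4 is known to raise on ER stress, was at 10.6, 9.99 and 5.52 CPM in the WT livers and at 2.5, 4.93, 3.53 and 3.94 CPM in the TET1 KO livers. WT replicates 1 and 2 were far above all TET1 KO values and WT replicate 3 was just above them, and Vldlr fell by 1.23 on the log2 scale (SE 0.27, adjusted p = 0.0471). The median of the list was −0.33, with 9 of 12 estimates below 0 and a range of −1.63 to 0.87. The 3 above 0, none of them called, were Atf4 (0.10), Trib3 (0.49) and Asns (0.87, at means of 0.671 CPM in WT and 1.25 CPM in TET1 KO). In 25% of the list the groups did not overlap, beside 22.5% of all tested genes.

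The main test (edgeR) called no gene in the other lists. In these DESeq2 called 3 genes higher and 1 lower in ER folding, 1 lower in ER-associated degradation, 3 lower in translocation and N-glycosylation, 1 higher among cytosolic chaperones and 0 among the sensors and transcription factors, counts to be read beside the 4.27% and 4.75% it called higher and lower over all genes. At an unadjusted p under 0.05 there were 8 genes in ER folding, 5 in ER-associated degradation, 3 among the sensors, 4 in translocation and 2 among cytosolic chaperones, beside 26.3% of all tested genes, so these counts are no result about the lists. Among 26 further ER folding genes the median log2 fold change was 0.00, with 13 estimates on either side. The smallest p-values were those of Fkbp11, a peptidyl-prolyl isomerase of secretory cells (log2 fold change 1.22, SE 0.31, adjusted p = 0.0645), and of Dnajc10, the disulfide reductase ERdj5 (−0.63, SE 0.16, adjusted p = 0.0655). Fkbp11 was at 13.9, 6.47 and 13.8 CPM in the WT livers and at 32.6, 31.4, 26.9 and 15.1 CPM in the TET1 KO livers. All TET1 KO values of Fkbp11 were thus above all WT values.

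Among 20 genes of ER-associated degradation the median was −0.15, and the smallest p-values were those of Herpud2, a relative of Herpud1 (log2 fold change −0.47, adjusted p = 0.0833), and Edem3, which trims mannose from misfolded glycoproteins (−0.44, adjusted p = 0.116). Of 11 sensors and transcription factors 8 estimates lay below 0 (median −0.14). Eif2ak3, which codes for PERK, had a log2 fold change of −0.70 (SE 0.22, adjusted p = 0.0949), with 9.94, 14.1 and 10.6 CPM in the WT livers and 5.7, 5.71, 6.9 and 9.93 CPM in the TET1 KO livers. Atf6 had −0.43 (SE 0.15, adjusted p = 0.121).

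For translocation and N-glycosylation, by which new proteins enter the ER and receive sugars, the median over 30 genes was 0.04. The smallest p-values were those of Ssr3, a subunit of the translocon-associated complex (log2 fold change −0.59, adjusted p = 0.0789), and of Srp54a, a subunit of the signal recognition particle (−0.86, adjusted p = 0.0902). The list of 20 cytosolic chaperones, compared because they are known as heat shock genes outside the ER and including the mitochondrial chaperonins Hspd1 and Hspe1, had a median of −0.01 with 10 estimates on either side. Hsp90aa1 (0.67, SE 0.20, adjusted p = 0.0884) and Hspe1 (0.39, SE 0.13, adjusted p = 0.099), had the smallest p-values there. Hsp90aa1 was highest in TET1 KO replicate 1 (456 CPM, against 171 to 305 CPM in the other 6 livers), the liver in which most of the ER chaperones were lowest.

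**Figure D5:**
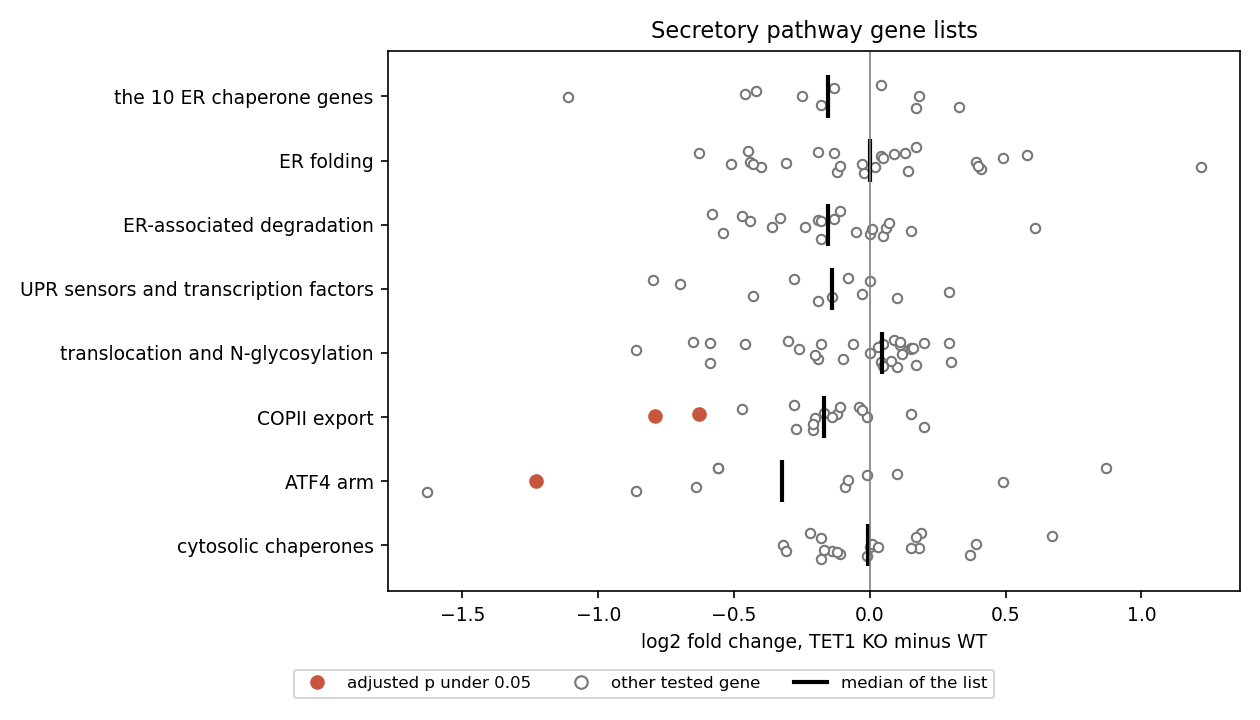
The log2 fold changes (x axis, TET1 KO minus WT) of the 10 ER chaperone genes and of the tested genes of 7 related lists; filled points passed an adjusted p of 0.05 and black bars are list medians. Sec24d and Sec23a in COPII export and Vldlr in the ATF4 arm are the filled points, and none of the 10 genes is filled.

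The make-up of the livers was described with marker lists. Summed hepatocyte markers (7 of 8 found by symbol) ran from 61631 to 83738 CPM in WT and from 75529 to 82139 CPM in TET1 KO livers, and the lowest was WT replicate 3, the liver in which the ER genes were highest. Most of that sum was Alb (42646 to 63896 CPM in WT and 48241 to 54750 CPM in TET1 KO livers), and the other 6 markers together were 18985 to 22705 CPM in WT and 24696 to 27388 CPM in TET1 KO livers. Of the 7, Cyp3a11 was called (1047 CPM in WT, 431 CPM in TET1 KO, adjusted p = 0.0436), while Apoa1 was higher in every TET1 KO than in every WT liver (5295 and 11343 CPM, adjusted p = 0.0818). Summed macrophage markers (7 genes) were 202 to 329 CPM in WT and 153 to 331 CPM in TET1 KO livers, lowest in TET1 KO replicate 1 and at 329 CPM in WT replicate 3. Summed B and plasma cell markers (7 genes), of interest because plasma cells are rich in ER chaperones, were 143 to 200 CPM in WT and 99 to 152 CPM in TET1 KO livers, but nearly all of this was Sdc1, which hepatocytes also express. The other 6 markers summed to 7.92 to 16.1 CPM in WT and 11.3 to 29.4 CPM in TET1 KO livers, lowest in WT replicate 2 and highest in TET1 KO replicate 2. Cholangiocyte markers (5 genes) were 29.7 to 37.8 CPM in WT and 46.1 to 68 CPM in TET1 KO livers, with none of them called. Neutrophil markers (4 genes) reached 31.1 CPM in WT replicate 3 and at most 8.17 CPM elsewhere. Endothelial, stellate, and T and NK cell markers overlapped between the groups except that the endothelial sum was 145 to 147 CPM in WT and 121 to 140 CPM in TET1 KO livers. No marker was at 0 in all livers, and the part of any of these cells in the variation of the ER genes was not tested.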

How the data were processed

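Each liver's table held gene counts that the authors deposited as raw, unnormalized values. The submitters' processing notes name GRCm38, Trimmomatic 0.36, GSNAP and featureCounts 1.5.3. The library kit marks strand, but the strand setting of the counting and whether poly(A) selection or rRNA depletion was used are not given in the sources used here. Tables were joined by Ensembl identifier (51426 genes, 7 mice). Genes with enough counts (filterByExpr) were tested with edgeR 4.0.16 (TMM scaling, quasi-likelihood test, TET1 KO against WT, no covariate), with Benjamini-Hochberg adjustment over 14754 genes and a threshold of 0.05. Those genes held at least 99.88% of each library's counts. The fit was tested on simulated data. Every simulated gene had the same biological coefficient of variation, 0.208, so genes of wider spread were not covered. DESeq2 1.42.0, other scalings and filters, a replicate block and leaving out each liver were alternatives. Log2 CPM used a prior count of 2, and intervals are t intervals of the fit.

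The members and lists were chosen with earlier results of these data known. Named beside the members were, per list, the genes called (5 with the smallest p where more were called, or the 2 with the smallest p where none was) and the 10 genes most like the mean member profile. Exon lengths came from GENCODE M1, and promoters and coordinates from RefSeq on GRCm38.p6, in which each of the 10 genes matched 1 entry. The marker Tf matched no symbol.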

Additional observations from a re-analysis of the deposited data

Results flagged for a closer look

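Among the 10 members, the 13 list genes named by rule and the library size, 24 sets of 4 TET1 KO values were examined for a liver far from the others; WT, with 3 livers, was not examined. Chance alone marks about 1 set in 20. Sec24d was marked because TET1 KO replicate 1, at 23.7 CPM, was separated from the next liver by 0.832 of the group's range (34.4 to 36.6 CPM in the other 3). Sec23a was marked because TET1 KO replicate 3, at 42.5 CPM, was separated by 0.901 of the range from livers at 46.3 to 46.8 CPM. In both cases all WT livers were higher than all TET1 KO livers. None of the 10 ER chaperone genes was marked.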

How the results depend on the processing

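Of 140 estimates for the 10 members over 14 alternative fits, 132 kept their direction and their side of the threshold, 5 reversed and 3 passed the threshold. Hsp90b1 reversed with scaling by library size alone (−0.05), and without single livers it ranged from −0.12 to 0.20 and Creld2 from −0.34 to 0.22. The count of members called lower, 0, became 1 with DESeq2 and 1 at an adjusted p under 0.1 (Dnajb9 both times), and stayed 0 without any single liver. Pathway genes called higher, 0, became 3 with DESeq2, 1 without the filter on low counts and 3 at an adjusted p under 0.1, with 0 to 2 without single livers. Pathway genes called lower, 3, became 10 with DESeq2 and 11 at an adjusted p under 0.1, with 0 to 4 without single livers. Of all tested genes 5.7% were higher and 5.59% lower at an adjusted p under 0.1, which is the share to read the counts at that threshold against. The cause was not tested.

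Calls over all tested genes went from 298 to 1326 with DESeq2, 592 without the filter, and 38 (without WT replicate 2) to 891 (without TET1 KO replicate 4) when single livers were left out. Replicates 1 to 3 share numbers between the groups, but the correlations of their deviations, 0.209, −0.123 and −0.096, were not all above 0.1, so the numbers were not taken to pair mice, and 1 of 3 matched its own number best. With the replicate block, which leaves out TET1 KO replicate 4, calls over all genes rose to 1383, 2 members were called lower (Hspa5, adjusted p = 0.048, and Dnajb9, adjusted p = 0.0244), and 2 pathway genes were called higher and 12 lower. The lowest member count was 295, for Dnajb9 in TET1 KO replicate 2, so that counting error is small beside the spread between livers.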

Other observations

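Ratios of counts within a liver do not depend on scaling between libraries, and they were computed for the other 9 genes over Hspa5 after the values had been seen, so they are a description without a test. Total Xbp1 per Hspa5 count was 0.254, 0.196 and 0.239 in the WT livers and 0.774, 0.307, 0.282 and 0.265 in the TET1 KO livers. Xbp1 was the only one of the 9 ratios in which the groups did not overlap, by a margin of 0.254 to 0.265, and TET1 KO replicate 1 stood far above the rest. Over Hspa5, the ratios of 6.93% of all other tested genes did not overlap between the groups, so that 1 of 9 is little more than this share. Calr per Hspa5 was 1.64, 1.07 and 1.23 in WT and 2.53, 2.64, 1.79 and 1.45 in TET1 KO livers, and Sdf2l1 per Hspa5 was 0.0614, 0.0352 and 0.0612 in WT and 0.0979, 0.128, 0.0915 and 0.0613 in TET1 KO livers. In both the lowest TET1 KO liver was replicate 4. Dnajb9 per Hspa5 went the other way, with means of 0.0873 ± 0.02 in WT (SD, n = 3) and 0.056 ± 0.015 in TET1 KO livers (SD, n = 4), and the groups overlapped.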
